A study of Mus musculus with 2 samples.

Results

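Cluster 12 (C12) of the splenic CD11c+ MHCII+ cells was examined as a Ccr7-positive, mature state of type 1 conventional dendritic cells (cDC1). Its members were all cells that the authors' deposited clustering at resolution 0.5 placed in C12, which gave 425 of 24343 cells. Of these, 31 came from the Batf3-/- library of 12119 cells, a share of 0.256% with an exact 95% interval of 0.174 to 0.363. The rest came from the wild-type (WT) library of 12224 cells, a share of 3.22% (2.92 to 3.55). WT C12 cells were described against resting cDC1 of cluster 4 (C4, 2202 WT cells) and mature type 2 cells (cDC2) of cluster 1 (C1, 721 WT cells). Resting cDC2 of cluster 0 (C0, 3176 WT cells) were used where a resting cDC2 cluster was needed beside C1. The authors pair C0 with another mature cluster, cluster 8 (C8). They state that the relation of C1 to their other cDC2 populations is still to be determined.

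Dendritic cells take up antigen at rest and, on maturation, move toward T cell zones along gradients read by the chemokine receptor CCR7. During this change they stop sampling their surroundings, present what they hold and express costimulatory molecules and cytokines. cDC1 are known for presenting internalised antigen to CD8 T cells and for making interleukin-12 (IL-12), and their development depends on the transcription factors IRF8, ID2 and BATF3.

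CITE-seq was used, in which each cell yields its transcripts and also counts of barcoded antibodies that had stained its surface. Both libraries came from spleens of female C57BL/6 mice aged 8 weeks, either WT or Batf3-/-, a line deficient in BATF3 in every cell. Spleens were pooled within a genotype, T and B cells were depleted, and live MHCII+ CD11c+ cells were sorted, stained with antibodies and loaded as 1 library per genotype. The design therefore has no replicate library, the cells of a library are not replicates of a genotype, and no test between genotypes or clusters was made.

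Levels are the summed counts of unique molecular identifiers (UMIs) of a gene in a group of cells per 1000000 UMIs of that group (CPM), with exact Poisson 95% intervals. Groups are compared by the log2 of their CPM ratio, whose exact interval treats the UMIs of both groups as a fixed sum. All intervals cover counting error only, not differences between mice or libraries. Those of levels and ratios also leave out the spread between cells. The WT C12 cells held 2967469 UMIs, with a median of 6887.5 per cell (quartiles 3585.75 and 10497.8) and 1877 genes. Median depth was 15398.5 UMIs in C4 and 6176 in C1, so that C12 was shallow beside C4 and close to C1. Ribosomal protein genes took 16.8% of C12 UMIs, against 24.6% in C4 and 20.7% in C1. Because the clusters were built from these transcripts, gene levels describe C12 and are no independent evidence for it. The antibody tags took no part in the clustering.

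The 4 given markers matched the description of C12 as a mature state. Ccr7 was at 1935 CPM (1885 to 1985) in WT C12, and the next highest of the 19 WT clusters with at least 50 cells was C1 at 831. Spint2, which encodes a membrane-bound protease inhibitor, was at 401 CPM (379 to 425), and the next was cluster 16 at 279.96. Il12b, encoding the p40 subunit of IL-12, was at 471 CPM (447 to 496), with cluster 8 next at 47.5. Il4i1, encoding an amino acid oxidase that restrains T cells, hardly separated C12 (1224 CPM) from C1 (1193 CPM). The heat map of 14 genes over clusters shows the same order, with C12 high for Ccr7 and Il12b and sharing Il4i1 with C1.

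**Figure D1:**
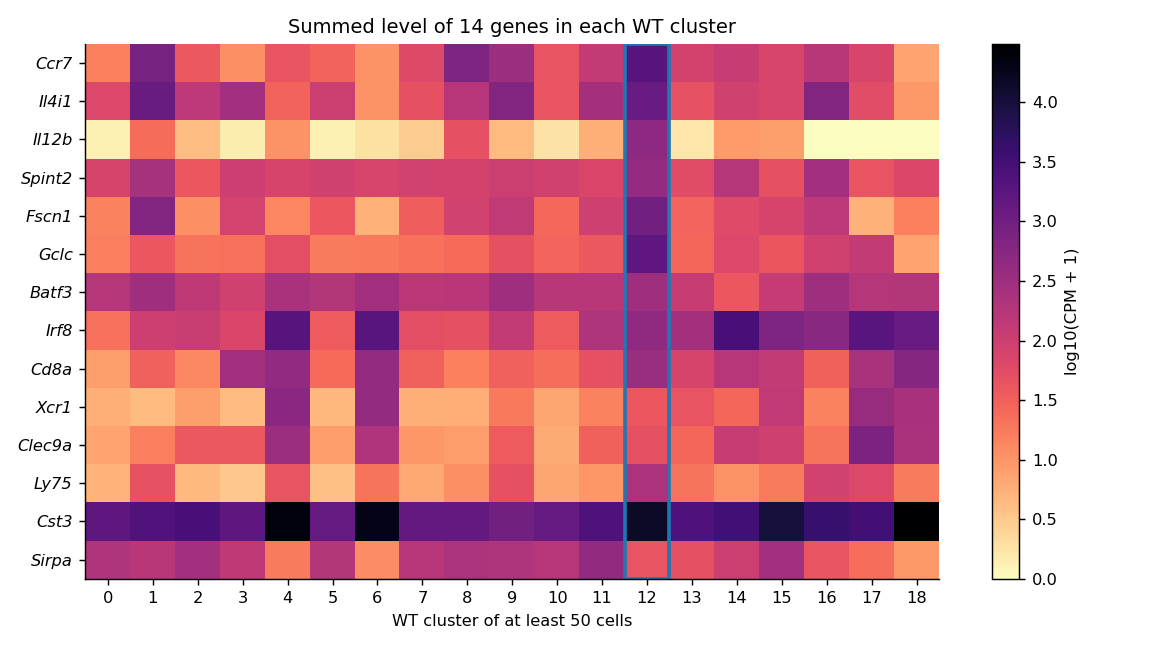
Heat map of the summed level of 14 genes (rows) in each WT cluster of at least 50 cells (columns, cluster number), coloured by log10(CPM + 1), with C12 outlined. Il12b and Gclc stand out in C12, at 471 and 1574 CPM, while Il4i1 is shared with C1 at 1193 CPM.

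Markers of most other lineages were low in C12. Summed over a list, T cell markers reached 67.7 CPM, of which Il7r gave 64.7, against 1657 in cluster 13. Monocyte and macrophage markers summed to 225 CPM, below the 363 of C4 and the 13121 of cluster 15, and plasmacytoid markers summed to 45.5 against 11492 in cluster 14. Of 8 natural killer markers 6 were at 0, and neutrophil, red cell and platelet markers summed to 27.97. Of 6 B cell markers 3 were at 0, and their sum was 55.3 CPM in C12, with Ms4a1 giving 48.9, against 33.4 in C4 and 128 in cluster 13, the highest. In Batf3-/- C12 it was 192. Doublet calling marked 36 WT C12 cells (9.14%, 6.48 to 12.4), against 11.4% in C4 and 5.96% in C1. It marked only 2 of the 12119 Batf3-/- cells, so it had not worked in that library. Between the libraries 56 cell barcodes were shared, and 3 of these belonged to C12 cells. The authors' reference-based labels called all WT C12 cells dendritic, and their phase calls put 366 in G1, 22 in S and 6 in G2M.

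The first comparison asked what distinguishes mature from resting cDC1. Of 5450 genes with at least 20 CPM in C12 or C4 and at least 20 UMIs over both, 915 (16.8%) were at least 2-fold higher in C12 and 1256 (23%) at least 2-fold lower. For 766 and 804 of these the whole interval lay past 2-fold. The median log2 ratio over all genes compared was -0.22, and centring it at 0 gave 1120 higher and 981 lower genes. Counted as UMIs per cell, a setting added after seeing the data, 411 genes were higher and 3175 lower, where a C4 cell held a mean of 15516.7 UMIs and a C12 cell 7531.65. Gene lists are described by how many members passed the same floor and 2-fold line. A gene that entered on its level in only 1 of the clusters had to differ, so these counts are descriptions.

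Genes of migration and adhesion were mostly higher in C12. Of 20 listed genes 16 passed the floor, and 11 were higher and 2 lower, with a median log2 ratio of 1.74. Ccr7 stood at 1935 CPM in C12 and 41.9 in C4, a log2 ratio of 5.53 (5.45 to 5.61). Fscn1, which bundles actin in the long processes of mature dendritic cells, was at 957 and 12.3 CPM (6.28, 6.13 to 6.43). Both genes were also higher per cell, at 14.6 against 0.650 UMIs for Ccr7 and 7.21 against 0.191 for Fscn1. Marcksl1 (875 and 52.3 CPM) and the adhesion molecule gene Icam1 (521 and 136 CPM) followed. Tmsb10, encoding an actin monomer binding protein, and the tetraspanin gene Cd9 were the 2 lower members, at log2 ratios of -1.57 and -1.48. On the actin and cytoskeleton list, which shares Fscn1, Vim, Myo1g, Marcks, Marcksl1 and Tmsb10 with these calls, 23 genes passed and 13 lay within 2-fold, with a median of 0.36. The calls not already counted were Tubb5 and Tuba1a, which were higher, and Coro1a and Dbn1, which were lower.

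Signals to T cells were mostly higher, with an exception among the B7 molecules. Of 18 costimulatory genes 12 passed the floor, and 8 were higher and 2 lower, with a median of 2.82. Cd40, the receptor through which helper T cells act on dendritic cells, was at 356 CPM (334 to 378) in C12 and 46.8 (44.6 to 49.2) in C4. Icosl, encoding the ligand of the T cell receptor ICOS, was at 297 and 25.0 CPM. Interleukin-15 and its presenting receptor, which together sustain CD8 T cells, were both higher: Il15 was at 125 and 15.7 CPM and Il15ra at 215 and 6.79 CPM, a log2 ratio of 4.98 (4.77 to 5.21). Cd86, encoding a ligand of CD28, was lower in C12, at 89.0 against 225 CPM (-1.34, -1.52 to -1.16), as was Cd48 at 68.4 against 194. Cd80, the other CD28 ligand gene, was at 27.3 and 23.4 CPM, and its interval of the log2 ratio held 0 (-0.13 to 0.55).

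Genes that restrain T cells were divided in the same way. Of 19 listed, 11 passed the floor, and 6 were higher and 3 lower, with a median of 1.21. Besides Il4i1 (1224 and 28.0 CPM), the higher genes were Cd274, encoding the inhibitory ligand PD-L1, at 94.0 and 10.8 CPM, Cd200 at 99.1 and 12.0, the signalling inhibitor Socs2 at 657 and 8.52, Socs1, and the death receptor gene Fas at 107 and 7.58. The lower genes were Havcr2, encoding TIM-3, at 20.9 against 212 CPM, Btla at 25.3 against 169, and Tgfb1 at 41.8 against 157.

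Cytokine genes split evenly in number. Of 18 listed 10 passed, with 5 higher and 4 lower. Il12b was at 471 CPM in C12 and 9.72 in C4, a log2 ratio of 5.60 (5.43 to 5.78). Tnf (148 and 27.9 CPM) and Lta (24.9 and 0.849 CPM), genes of the tumour necrosis factor family, were also higher, and Ltb reached 2.04-fold. The lower genes were Il18 (2.70 against 37.0 CPM), Il1b (63.0 against 200.2), Il16 (16.5 against 101) and Tgfb1. Of 15 chemokine genes 8 passed, with 3 higher, 2 lower and 3 within 2-fold and a median of -0.64. Ccl5 was at 4753 CPM in C12 and 104 in C4. Ccl22, whose product attracts CCR4-bearing T cells, was at 247 and 7.14 CPM, and Cxcl16 at 751 and 106. Cxcl9, whose product attracts CXCR3-bearing T cells, was lower at 89.3 against 608 CPM, as was Ccl4 at 32.4 against 69.9.

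Nuclear factor kappa B (NF-kB) and tumour necrosis factor receptor signalling genes were mostly higher in C12. Of 26 genes 24 passed the floor, and 19 were higher and 1, the receptor gene Tnfrsf1a, lower, with a median of 2.07. Relb, encoding the subunit of the alternative NF-kB route, was at 720.5 CPM in C12 and 65.0 in C4, and its partner gene Nfkb2 at 155 and 38.0. Traf1, an adaptor gene that is itself induced by NF-kB, was at 1967 and 162 CPM, and Birc2, encoding an E3 ligase of the same receptor complexes, at 583 and 39.7. Genes of feedback inhibitors stood higher too, with Nfkbia at 911 and 257 CPM and Tnfaip3 at 162 and 28.8. Rela (63.0 and 31.6 CPM) and Nfkb1 (208 and 143 CPM), the subunits of the classical route, lay within 2-fold. Tnfrsf4, encoding the receptor OX40, was among the 10 highest ratios of genes with at least 50 CPM, at 403 CPM in C12 and 2.20 in C4.

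RefSeq promoter sequences (build GRCm38.p6) were read for these genes because NF-kB proteins bind a known short motif. Of the 26 listed genes 21 had an entry. Searched on both strands over 300 bases around the start, the letters GGGNNTTTC were found in 7 of the 21, namely Nfkb2, Nfkbia, Rel, Rela, Tnfaip3, Traf2 and Traf3. The same letters were found in 4.36% of 32851 promoter entries and in 5.16% of the 4376 compared genes with an entry. They were found in 8.54% of the 714 genes that were at least 2-fold higher in C12 and 4.91% of the 1018 that were lower. A second motif, GGGGAATTT, was found in 0.250% of all entries and can overlap the first, as it did in Nfkbia. The entries for Il4i1 and Spint2 held neither motif, and Ccr7 had no entry. The 150 bases before the start are printed for Il12b, Nfkbia and Rel, which are the gene most particular to C12 among the given markers, a feedback inhibitor and a subunit. Capitals mark the motif letters on either strand. The Il12b stretch lies at chr11:44399913-44400062 on the plus strand and holds GGGGAATTT on the opposite strand, 130 to 122 bases before the start. The Nfkbia stretch lies at chr12:55492648-55492797 on the minus strand and holds GGGNNTTTC 113 to 105 bases before the start and, on the opposite strand, both motifs overlapping within 28 to 19 bases of it. The Rel stretch lies at chr11:23770970-23771119 on the minus strand and holds GGGNNTTTC on the opposite strand, 90 to 82 bases before the start. These are matches of letters and were not measured as binding sites.
Il12b: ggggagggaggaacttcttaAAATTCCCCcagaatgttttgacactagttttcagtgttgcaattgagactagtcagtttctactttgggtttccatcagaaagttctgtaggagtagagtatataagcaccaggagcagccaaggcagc
Nfkbia: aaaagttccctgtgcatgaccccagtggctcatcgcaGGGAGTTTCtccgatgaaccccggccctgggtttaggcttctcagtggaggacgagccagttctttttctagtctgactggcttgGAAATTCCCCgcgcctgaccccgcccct
Rel: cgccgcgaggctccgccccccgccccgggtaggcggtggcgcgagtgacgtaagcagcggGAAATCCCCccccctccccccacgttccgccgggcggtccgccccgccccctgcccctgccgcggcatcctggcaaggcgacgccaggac

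Most cDC1 identity genes were lower in C12 than in C4. Of 28 listed genes 26 passed the floor, and 23 were lower and 1 higher, with a median log2 ratio of -3.32. Tlr3, encoding the sensor of double-stranded RNA, had 5 UMIs over all WT C12 cells, 1.68 CPM against 107 in C4 (-5.99, -7.61 to -4.76). Naaa, encoding a lipid amidase, was at 34.7 against 1060.5 CPM, and the lysosomal thioesterase gene Ppt1 at 82.9 against 1604. Xcr1, the chemokine receptor that defines cDC1, was at 39.8 against 509 CPM, and Clec9a, the receptor for dead cells, at 46.2 against 325. Cd8a (350.5 and 442 CPM) and Mpeg1 (346 and 654 CPM), encoding the pore-forming perforin-2, differed by less than 2-fold. Ly75, encoding the uptake receptor DEC-205, was the higher member, at 216 CPM in C12 and 42.2 in C4.

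Of 16 listed transcription factor genes 12 passed, with 2 higher, 2 lower and 8 within 2-fold, near the 60.2% of all genes compared that lay within 2-fold. Batf3 was at 313 CPM (293 to 334) in C12, 238 in C4, 297 in C1 and 180.5 in C0. Irf8, which drives cDC1 fate, was at 454 CPM in C12 and 1970.4 in C4 (-2.12, -2.20 to -2.04), but C1 stood lower still at 98.0 and C0 at 21.3. Id2 was higher, at 2158 CPM against 997, although per cell the counts were near, 16.3 and 15.5 UMIs. Batf, a relative of Batf3, was at 46.2 CPM in C12, 17.5 in C4 and 15.3 in C1, and Bcl11a was at 58.3, 133 and 109. Zeb2, which favours other lineages over cDC1, was at 30.0 CPM in C12 and 17.2 in C4, but 344 in C1.

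Antigen presentation genes divided by class. Of 13 class II genes that passed the floor (of 14 listed) 7 were lower and 1 higher, with a median of -1.28. H2-Ab1, a chain of the class II molecule, was at 3537 CPM in C12, 11346 in C4 and 7181 in C1. Larger ratios were found for H2-DMb1, a chain of the peptide exchanger H2-DM (64.0 against 578 CPM in C4), for Ciita, the master regulator of class II (109.5 against 484), and for March1, encoding a ligase that removes class II from the surface (21.2 against 183). Lgmn, encoding an antigen-processing protease, was the higher member at 147 against 29.9 CPM. Of 17 class I genes 7 were higher and none lower, with a median of 0.71. H2-K1 was at 4328 CPM in C12 and 1604 in C4, and B2m at 4358 and 1609.9. Per cell these were 32.6 against 24.9 UMIs and 32.8 against 25.0, whereas H2-D1 was higher in CPM (4039 and 2189.6) but not per cell (30.4 and 34.0 UMIs). Nlrc5, the class I counterpart of Ciita, was at 276 CPM in C12, 32.1 in C4 and 62.0 in C1.

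Sensing and uptake genes that passed were lower in most cases. Of 21 sensing genes 8 passed, and 5 were lower, namely Tlr3, Tlr11, Tlr12, Myd88 and Unc93b1, against 1 higher, the TLR4 partner gene Ly96. Of 18 uptake receptor genes 7 passed, with Clec9a, Cd36, Fcgr2b and Havcr2 lower and Ly75 higher. Of these sensing and uptake calls, Tlr3, Tlr11, Tlr12, Clec9a, Cd36 and Ly75 are also on the cDC1 identity list, and Havcr2 on the T cell restraint list. The calls not already counted were Myd88, Unc93b1 and Fcgr2b, which were lower, and Ly96, which was higher. Of 20 lysosomal genes 17 passed, with 3 higher and 5 lower and a median of 0.02, shares near those over all genes. Lamp1 was at 545 CPM in C12 and 75.3 in C4, and Psap, encoding the precursor of the saposins, at 1534 and 4043.

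Most cholesterol synthesis genes that passed were higher. Of 20 cholesterol synthesis and uptake genes 13 passed, and 10 were higher and none lower, with a median of 1.65. Idi1, encoding an isomerase of the pathway, was at 169.5 CPM in C12, 20.6 in C4 and 73.8 in C1. Among efflux genes Abcg1 was higher too, at 288 CPM against 48.0, as was Apol7c at 3393 against 849. Of 17 survival and apoptosis genes that passed, 9 were higher, 8 within 2-fold and none lower, with a median of 1.06. These included genes that protect, such as Bcl2l1 (37.7 and 4.71 CPM) and Cflar (473 and 45.7 CPM), and Bcl2l11 (181 and 30.0 CPM), which promotes death. Of 13 glycolysis genes that passed, 6 were lower and none higher, with Ldha at 53.2 against 333 CPM. Among interferon-stimulated genes 6 were higher and 2 lower of 13, with Irf1 at 667 against 62.2 CPM. Among the 16 early response and dissociation genes, 1 was higher and 3 lower, with a median of -0.21, and the stress gene Hspa1a was at 1418 and 1373 CPM. Of 18 cell cycle genes 4 passed the floor, with 1 higher and 1 lower.

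**Figure D2:**
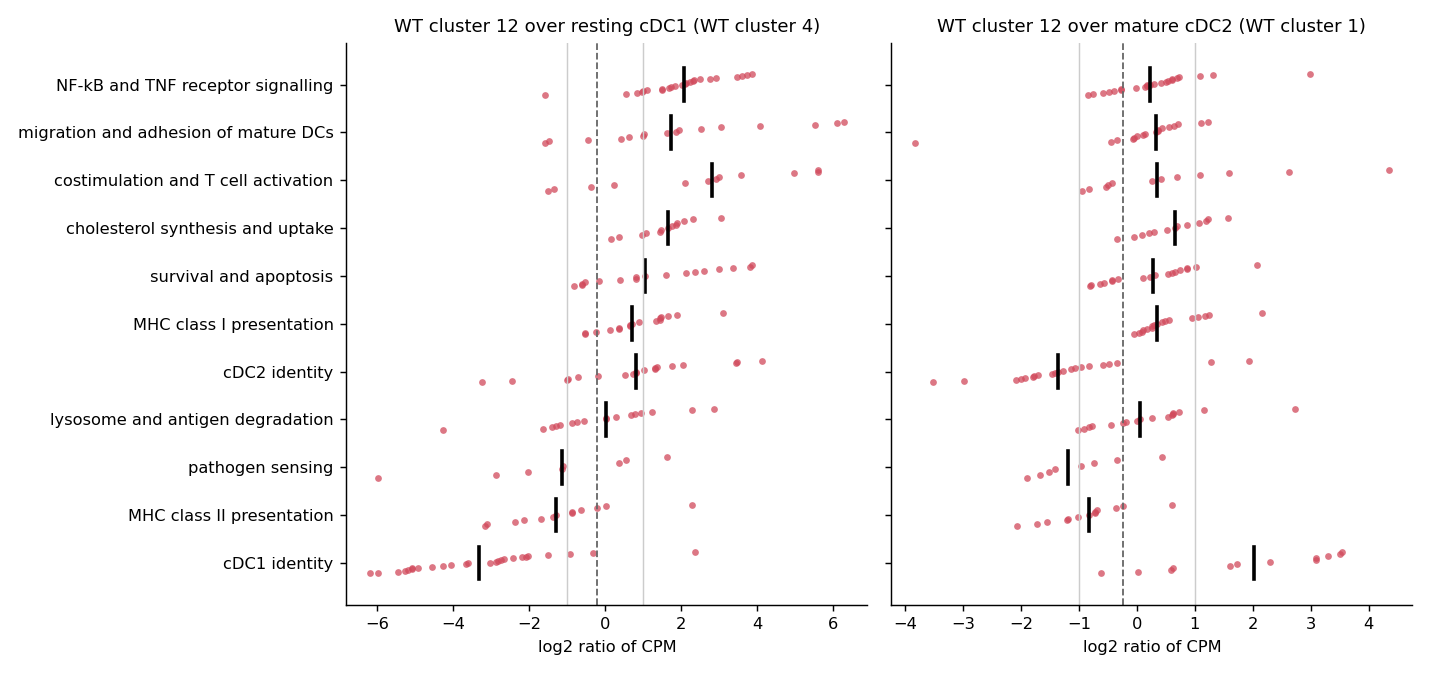
Log2 ratio of CPM of WT C12 over resting cDC1 (C4, left) and over mature cDC2 (C1, right) for the genes of 11 lists that passed the floor, 1 point per gene, with a black bar at each list median, a dashed line at the median of all genes compared and grey lines at 2-fold. NF-kB genes had a median of 2.07 over C4 and 0.22 over C1, and cDC1 identity genes -3.32 over C4 and 2.02 over C1.

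The 10 highest ratios over C4 among genes with at least 50 CPM were those of Synpo2 (154 and 0.761 CPM, log2 7.66), Dscaml1 (99.1 and 0.498), Tnfrsf4, Ankrd33b (399 and 2.40), the Notch ligand gene Jag1 (79.2 and 0.615), Gm47662, Asprv1 (503 and 4.16), the kinase gene Src (63.4 and 0.556), Zmynd15 (353 and 3.51) and Eno2 (71.4 and 0.732). The 10 lowest were Tlr3, Cbr3, Pianp, the late endosome gene Rab7b (7.75 against 298 CPM), Hepacam2, the lectin gene Cd207, 2310040G24Rik, Naaa, Unc119b and Gcsam. Cbr3 had 3 UMIs in C12, and its log2 ratio of -5.87 carried an interval of -8.15 to -4.32. Of the 10 lowest, 7 (Tlr3, Pianp, Rab7b, Hepacam2, Cd207, Naaa and Gcsam) were on the cDC1 identity list. That list was chosen with earlier results of these data known, so the overlap is a description. Of the 1256 lower genes 23 were on it.

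The second comparison asked how mature cDC1 differ from mature cDC2. Fewer genes stood apart than between C12 and C4: of 5311 genes compared, 420 (7.91%) were at least 2-fold higher in C12 and 689 (13.0%) lower, with 274 and 296 whole intervals past the line. The median log2 ratio was -0.25, and centring at 0 gave 540 and 469. This comparison shares its C12 cells with the one before, so each ratio is given on its own.

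Of all genes compared, 79.1% lay within 2-fold between C12 and C1. Of 23 NF-kB genes that passed, 20 lay within 2-fold, 3 were higher (Tnfaip2, Tnip3 and Cd40) and none lower, with a median of 0.22. Of 17 migration genes 14 were within 2-fold; Ccr7 (1935 and 831 CPM) and Vim (816 and 377) were higher, and Gpr183, a receptor for oxysterols that positions dendritic cells in the spleen, was lower at 18.9 against 269. The NF-kB and migration shares were near that over all genes. Of 12 costimulatory genes 4 were higher, namely Cd40, Il15, Il15ra and Il12b, 8 lay within 2-fold and none was lower. Il15 stood at 125 CPM in C12, against 41.4 in C1, Il15ra at 215 and 35.0, and Cd40 at 356 and 166. Il12b was at 471 CPM in C12 against 23.1 in C1, a log2 ratio of 4.35 (4.07 to 4.64).

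Lineage genes differed between the mature states. Of 12 cDC1 identity genes that passed (of 28 listed) 8 were higher and none lower, with a median of 2.02. Xcr1, Cadm1 and Clec9a (46.2 CPM in C12 and 15.1 in C1) passed the floor only on their C12 level and could only come out higher. The count is therefore a description. Cd8a stood at 350.5 CPM in C12, against 30.8 in C1, Mpeg1 at 346 and 35.4, Cadm1 at 70.1 and 8.25, Xcr1 at 39.8 and 3.42 and Ly75 at 216 and 44.1. Naaa (34.7 and 23.1 CPM) and Wdfy4 (113 and 112 CPM), by contrast, lay within 2-fold. Of 21 cDC2 identity genes that passed, 14 were lower in C12 and 2 higher, with a median of -1.35. S100a4, encoding a calcium-binding protein, stood at 241 CPM in C12, against 1912 in C1, and Sirpa, encoding the receptor CD172A, at 41.8 and 167. Both were nonetheless lower in C4, at 97.5 and 16.4 CPM. Over C4, 9 of 19 cDC2 identity genes were higher in C12 and 3 lower. Tmem176a was the clearest example, at 832 CPM in C12, 47.4 in C4 and 1826 in C1. Of these 9 genes, however, Tmem176a, Tmem176b and Relb were also at least 2-fold higher in C1 than in resting cDC2 of C0, and Cd7 was lower. Relb is on the NF-kB list too, and whether C1 over C0 holds maturity alone was not tested. The count therefore does not separate lineage from maturity.

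Some presentation and lipid genes differed from C1 as well. Of 13 class II genes 6 were lower in C12 than in C1, with Ciita at 109.5 against 362 CPM, and none was higher. Of 17 class I genes 4 were higher and none lower, namely Tap1 (434 and 208 CPM) and Tap2 (231 and 97.6), which encode the peptide transporter, Tapbpl and Nlrc5. Of 13 cholesterol synthesis genes 4 were higher and none lower, and of 8 efflux genes 4 were higher and none lower. Psap stood at 1534 CPM in C12, against 684 in C1. Irf1 was at 667 and 155 CPM and the antiviral gene Mx1 at 168 and 56.5.

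The 10 highest ratios over C1 were led by Mab21l3 (82.2 and 1.41 CPM), Laptm4b (255 and 5.63), Gclc (1574 and 39.8), Zdhhc14 (83.9 and 2.41) and Exoc3l4 (54.9 and 2.61). Gclc encodes the catalytic subunit of the first enzyme of glutathione synthesis, and Laptm4b a lysosomal membrane protein. Il12b, Tspoap1, Lima1 (468 and 27.8 CPM), Bcl2l14 (401 and 27.6) and Ncoa7 (593 and 44.3) completed the list. At the lower end 2610528A11Rik had no UMI in C12 and 202 CPM in C1, at least 200.2-fold lower against a floor of 3 counts in C12. The exact interval of its log2 ratio, which also holds the counting error of C1, ended at -7.34. It was followed by Dkk2 (5 UMIs in C12), the fatty acid binding protein gene Fabp5 (169 against 2411 CPM), Gpr183, Ryr3, St8sia1, Crispld2, Ccl9, Zeb2 (30.0 against 344) and Slc7a11. Slc7a11 encodes the cystine carrier that feeds glutathione synthesis, so that Gclc and Slc7a11 lay at opposite ends.

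**Figure D3:**
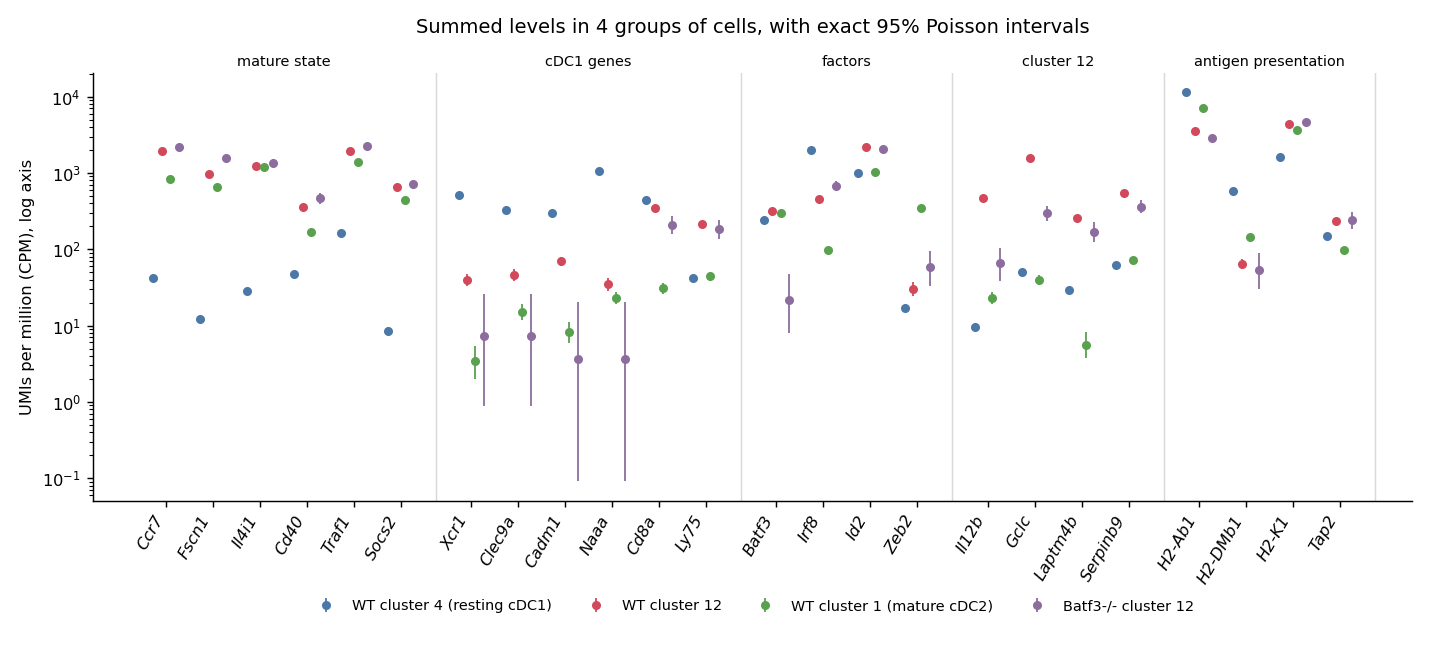
Summed level (CPM, log axis) of 24 genes grouped by role in WT C4, WT C12, WT C1 and Batf3-/- C12, with exact 95% Poisson intervals as bars. Ccr7 is at 1935 CPM in WT C12, 831 in C1 and 41.9 in C4, the cDC1 genes other than Ly75 lie between C4 and C1, and Il12b and Gclc are highest in WT C12, at 471 and 1574 CPM.

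The step from resting to mature cDC1 was then set beside C1 over C0, called the cDC2 step here. It shares no cell with C12 over C4. The authors pair C0 with C8 and not with C1, and whether C0 is the resting state of C1 was not tested. The counts below therefore compare these clusters only. In the cDC2 step 508 of 5660 genes (8.98%) were at least 2-fold higher and 489 (8.64%) lower. Centring its median of -0.18 at 0 gave 598 and 346. Of the 915 genes higher in C12 over C4, 378 were also higher in C1 over C0, which is 41.3% of the former and 74.4% of the latter, and 2 were lower. Of the 1256 lower genes 241 were shared, 19.2% of the former and 49.3% of the latter, and 6 went the other way. Of the higher genes 145 and of the lower 187 did not enter the cDC2 step and could not be shared. Ccr7, Fscn1, Socs2 and Relb were higher in both steps: Ccr7 had log2 ratios of 5.53 in cDC1 and 5.89 in cDC2, Fscn1 6.28 and 5.59, Socs2 6.27 and 7.21, and Relb 3.47 and 1.96. Irf8 differed between them, at -2.12 in cDC1 and 2.20 in cDC2, from resting levels of 1970.4 and 21.3 CPM. Cd8a was at -0.33 and 2.14 and Cst3, encoding the protease inhibitor cystatin C, at -0.74 and 0.45. The C1 levels of Irf8 and Cd8a rested on few cells. Of 721 C1 cells, 219 held an Irf8 UMI, with 65.9% of these UMIs in 73 cells, and 63 held a Cd8a UMI. Called doublets made up 5.96% of C1 and 0.283% of C0 cells, and their part in these ratios was not tested. The difference between the steps was not tested.

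Among genes with at least 50 CPM and 20 UMIs in C12, C12 had the highest CPM of the 19 WT clusters for 422. For 105 of these it was at least 2-fold above the next cluster. The same count was not made for the other clusters, so these numbers describe C12 and do not set it apart. The largest ratio was that of Gclc, at 1574 CPM against 124 in cluster 17, or 12.7-fold. Il12b followed at 9.91-fold and Arc, known as an activity-regulated gene of neurons, at 9.22-fold, with 87.3 CPM against 9.47 in cluster 16. Others among the 15 highest were Src, Tmem39a (314 against 42.6 CPM in C1), Lima1, which binds actin (468 against 68.5 in cluster 17), Prph, the GTPase regulator gene Arhgap31 (592 against 92.4 in cluster 9), Atxn1, Dscaml1, Gm47662, Fgfbp3, Fnbp1l and Ccng2. Serpinb9, whose product blocks granzyme B and thereby protects cells from cytotoxic T cells, was at 552 CPM against 100.1 in cluster 16. In resting cDC1 it was at 61.4 and in mature cDC2 at 71.2 CPM.

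In single cells the genes most particular to C12 were unequally spread. Each cell was thinned to 2000 UMIs, which left 351 WT C12 cells. Il12b was then found in 29.1% of C12 cells (24.4 to 34.1), in 1.46% of C4, 2.52% of C1 and 0.0316% of C0, where the median depth before thinning was 6648 UMIs against 6887.5 in C12. Without thinning 153 WT C12 cells held an Il12b UMI. The 40 cells with most Il12b held 72.3% of its UMIs, up to 56 in 1 cell, so that the level of C12 rested on few cells. Gclc was found in 75.5% of thinned C12 cells (70.7 to 79.9), against 6.01% in C4, 7.69% in C1 and 2.37% in C0. Ccr7, found in 89.7% of C12 cells and 69.0% of C1 cells, was more even: its top 40 cells held 32.5% of the UMIs.

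Xcr1, Cd8a and Irf8 were found in fewer C12 than C4 cells at the same depth, and Ly75 in more. Xcr1 was found in 4.56% of C12 cells, 58.6% of C4 and 1.12% of C1 cells, and Cd8a in 29.9%, 51.9% and 4.20%. Ly75 was found in 37.9% of C12 and 9.02% of C4 cells, and Irf8 in 50.1% and 94.2%. At least 1 UMI of the cDC1 surface genes Xcr1, Clec9a, Cadm1 and Cd8a was held by 41.0% of C12 cells (35.8 to 46.4), against 92.0% in C4 and 8.95% in C1. For the cDC2 surface genes Sirpa, Itgam, Cd4 and Clec4a4 the shares were 8.83%, 5.24% and 33.6%. Both kinds were held by 3.70% of C12 cells (1.99 to 6.25), 4.51% of C4, 2.24% of C1 and 1.96% of C0 cells. The share that stray transcripts would give was not measured. With called doublets left out the share with cDC2 surface genes was 6.35% in C12 and 2.62% in C4, and that with both was 3.49% and 2.52%.

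The antibody tags gave a view of C12 that the clustering had not used. The deposited table leaves its 11 tag rows unnamed. In other clusters 4 rows and their genes were each other's highest correlation, both with UMIs and with UMIs as a share of the cell's total, and were taken as CD8A, CD24, CD172A and CD4. The other 7 rows did not meet this with the same gene on both scales and were not used here. CD8A tags ranged from 19 to 343 per C12 cell, with a median of 97 (quartiles 75 and 130), against medians of 122 in C4, 43 in C1 and 41 in C0. Taking the 95th percentile of C1 (76 tags) as a line, 74.6% of C12 cells lay above it (70.0 to 78.8) and 76.8% of C4 cells (75.0 to 78.6). These intervals overlapped, whereas 30.2% of C12 cells (25.7 to 35.0) lay above the median of C4. As a share of a cell's tags, CD8A had medians of 17.6% in C12, 18.1% in C4 and 8.63% in C1, and 44.7% of C12 cells lay above the C4 median.

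CD24 tags lay between the resting and the cDC2 level. Their median was 70 in C12 (quartiles 56 and 89), 131 in C4 and 35 in C1. Of C12 cells 42.9% lay above the 95th percentile of C1, against 92.7% of C4 cells. CD172A, a cDC2 protein, had a median of 26 tags in C12, 23 in C4 and 36 in C1. Only 11.7% of C12 cells lay above the median of C1, and 61.9% (56.9 to 66.7) lay above that of C4. As a share of a cell's tags these became 4.57% and 86.5%, where the median cell held 563.5 tags in C12, 694 in C4 and 496 in C1. CD4 tags were at medians of 30, 27 and 35. CD8A protein and transcript went together within C12: the 105 thinned cells with a Cd8a UMI had a median of 123 CD8A tags and the 246 without had 95. The cells without a Cd8a UMI thus still stood above the 42 tags of such cells in C1.

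**Figure D4:**
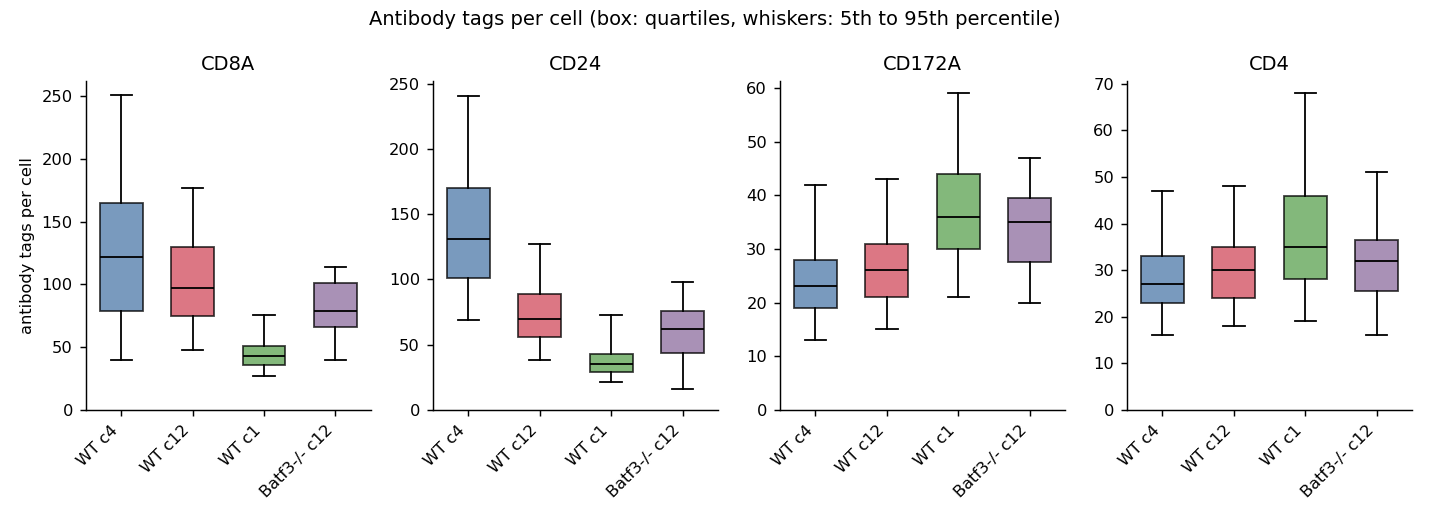
Antibody tags per cell for CD8A, CD24, CD172A and CD4 in WT C4, WT C12, WT C1 and Batf3-/- C12, where boxes give quartiles with the median as a line and whiskers run from the 5th to the 95th percentile. The CD8A median of WT C12 is 97, against 122 in C4 and 43 in C1, and the CD172A medians are 26, 23 and 36.

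Cells within C12 were not uniform. Per cell, the summed cDC1 identity genes had a median of 1068 CPM with quartiles of 650.2 and 1876, between the 7278 of C4 and the 360.2 of C1. The summed cDC2 identity genes had a median of 2906 CPM, against 929 in C4 and 8213 in C1. This sum includes Relb and Tmem176a, which were also higher in C1 than in C0. Cst3, an abundant transcript, was chosen after its values were seen to order the cells, since it ranged widely within C12. By the share of its UMIs the cells were divided at the quartiles into groups of 99, 98, 99 and 98 cells, with Cst3 at 1282, 4405, 12036 and 27945 CPM.

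Il12b and Cd8a were low where Cst3 was low. From the lowest to the highest group Il12b was at 20.4, 115, 403 and 941 CPM, and Cd8a at 48.5, 113, 487 and 500.5. Gclc was at 1042, 1034, 1407 and 2285 CPM and the class II gene H2-Aa at 2426, 2964, 4233 and 7682. Ccl5 went the other way, at 6969, 8847, 3726 and 2127 CPM, and the cDC1 factor gene Irf8 was at 526, 635, 425 and 333. Batf3 stayed within 267 to 345 CPM, and Ccr7 was at 1277, 2334, 2174 and 1713, so that these 2 genes did not follow Cst3. CD8A tags, measured apart from the transcripts, had medians of 83, 93.5, 123 and 99. Depth moved with the order, from a median of 2829 UMIs in the lowest group through 6156.5 and 8377 to 10184.5 in the highest, and called doublets numbered 12, 13, 8 and 3. Their part in the order was not tested.

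At an equal depth of 2000 UMIs the relation held as a description across 351 cells of 1 library, which share the sort and the run. Spearman's rho of Cst3 was 0.43 with Il12b, 0.39 with Cd8a, -0.34 with Ccl5 and -0.16 with Irf8. Without called doublets, in 315 cells, it was 0.43 with Il12b and 0.37 with Cd8a. Ccl5 went with Vim (0.39) and Fscn1 (0.38) and against Il12b (-0.32).

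**Figure D5:**
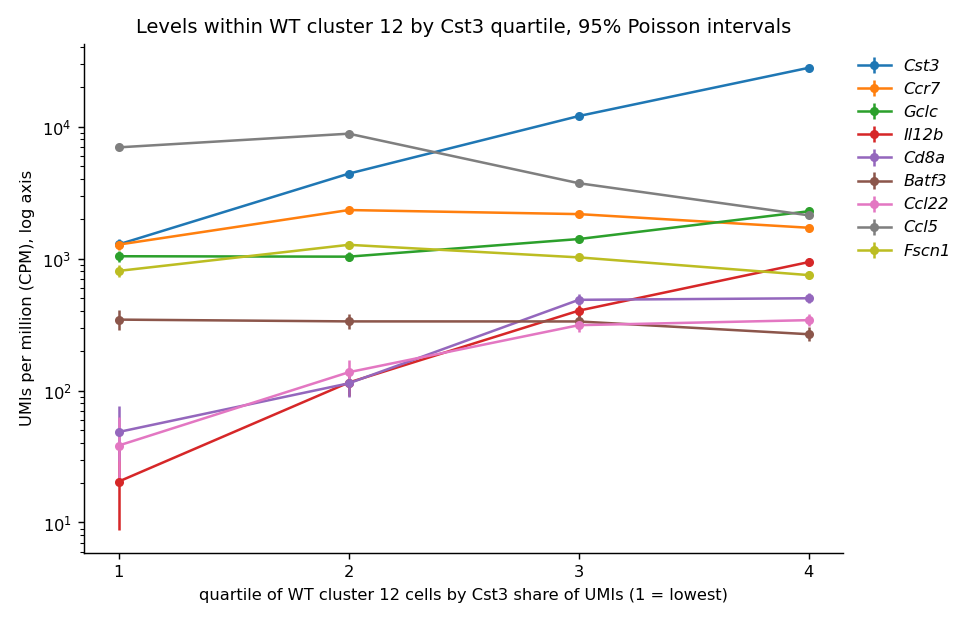
Summed level (CPM, log axis) of 9 genes in the 4 quartile groups of WT C12 cells ordered by Cst3 share of UMIs, with exact 95% Poisson intervals as bars. Il12b goes from 20.4 to 941 CPM between the lowest and the highest group, Ccl5 from 6969 to 2127, and Batf3 stays between 267 and 345.

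The last comparison set the 31 Batf3-/- cells of C12 beside the WT cells. The mutant cells held 276572 UMIs, with a median of 8051 per cell. The targeted gene Batf3 was at 313 CPM in WT C12 and 21.7 (7.96 to 47.2) in Batf3-/- C12, where 6 UMIs lay in 2 cells. Of these 6 UMIs, 5 lay in 1 cell, and the level without it was 3.74 CPM. Of 4974 genes compared 276 (5.55%) were at least 2-fold higher in the mutant cells and 323 (6.49%) lower, with a median log2 ratio of 0.02. The whole interval lay past 2-fold for 24 and 17 genes. Counted as UMIs per cell, a setting added after seeing the data, the numbers were 520 and 200, and in cells thinned to 2000 UMIs they were 259 and 707.

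Of all genes compared, 88% lay within 2-fold between Batf3-/- and WT C12. Ccr7, Fscn1 and Il4i1 had UMIs in 31 of 31 cells. Ccr7 was at 2162 CPM in the mutant and 1935 in WT cells, Il4i1 at 1359.5 and 1224 and Spint2 at 390.5 and 401. Fscn1 was at 1558 against 957 CPM, a log2 ratio of 0.70 (0.55 to 0.85). Of 23 NF-kB genes that passed, 21 lay within 2-fold and 2 (Map3k14 and Tnip3) were lower, and all 17 class I genes lay within 2-fold, the NF-kB share being near that over all genes. Of 17 migration genes Vim and Gpr183 were higher and none lower, and of 12 costimulatory genes Tnfsf9 and Il12b were lower and none higher. Of 16 cholesterol synthesis genes 7 were higher and none lower, with Idi1 at 430.3 against 169.5 CPM and Hmgcs1 at 286 against 130.4.

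Of 12 cDC1 identity genes that passed, 7 were lower in the mutant cells, 5 lay within 2-fold and none was higher, with a median of -1.76. Xcr1, Clec9a, Cadm1, Naaa and Cd36 passed the floor only on their WT level and could only come out lower. The count and the median are therefore descriptions. Among the 7 was Cd36, which had no UMI in the mutant cells and a log2 interval that ended at -0.70. Xcr1 and Clec9a had 2 UMIs each (7.23 CPM against 39.8 and 46.2 in WT), with log2 intervals of -5.52 to -0.57 and -5.73 to -0.79. Cadm1 had 1 UMI, with a log2 ratio of -4.28 (-9.59 to -1.78). Cd8a was at 209.7 against 350.5 CPM (-0.74, -1.15 to -0.36), in 12 of 31 cells. Irf8 was not lower, at 673 against 454 CPM (0.57, 0.34 to 0.79), and was found in 29 of 31 cells.

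Il12b and Gclc, with the largest ratios of WT C12 over the next cluster, were both lower in Batf3-/- C12. Other genes of the 15 highest in WT C12 were divided. Lima1 (152 against 468 CPM in WT) and Atxn1 (101 against 197) were lower as well. Arhgap31 (575 and 592), Ccng2 (170 and 171), Dscaml1 (90.4 and 99.1) and Fgfbp3 (86.8 and 83.9) were near the WT level, and Gm47662 (105 and 61.3) was higher. Il12b was at 65.1 CPM (38.6 to 103) against 471, a log2 ratio of -2.86 (-3.61 to -2.19), with 18 UMIs in 6 cells. Of these, 8 lay in 1 cell, and the level without it was 36.8 CPM. In WT C12 the 40 cells with most Il12b held 72.3% of its UMIs, and the interval does not hold this spread between cells. Gclc was at 296 CPM (236 to 368) against 1574, a log2 ratio of -2.41 (-2.74 to -2.09), with UMIs in 25 of 31 cells. The remaining genes among the 10 lowest were Prph (no UMI against 149, at least 4.63-fold lower against a floor of 3 counts, with an exact log2 interval that ended at -1.89), Cadm1, Batf3, Nr4a1, Htt, Hsd17b11, Adam19 and Lgals3. The 10 highest were Plppr4 (14 against 15 UMIs), Gm37422, Fabp5, 9530059O14Rik, Mcemp1, Ndrg1, Gpr183, Csf1, Ptgs2 and M1ap. Fabp5 was at 926 against 169 CPM, but 100 of its 256 UMIs lay in 1 cell and the level without it was 607. Ms4a1, a B cell marker, was at 188 against 48.9 CPM with 26 of 52 UMIs in 1 cell, and its part in these differences was not tested.

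Within the Batf3-/- library C12 was set over the 1845 cells of C1 for the 20 genes with the highest and lowest ratios in WT. Of 5432 genes compared within that library 485 (8.93%) were at least 2-fold higher in C12 and 894 (16.5%) lower. All 20 genes had the WT sign, 19 were at least 2-fold apart, and for 19 the whole interval lay on the WT side of 0. Since 1 clustering of these transcripts placed the cells of both genotypes, these counts are descriptions and no support for a likeness. Crispld2 was within 2-fold, at -0.93 (-1.84 to -0.15) against -3.59 in WT, and the interval of Exoc3l4 held 0, at 1.72 (-0.20 to 3.16) against 4.39. Laptm4b had a log2 ratio of 4.51 (3.98 to 5.03) against 5.50 in WT, Mab21l3 of 5.29 against 5.87 and Tspoap1 of 3.84 against 4.20. Gclc was at 2.86 (2.50 to 3.19) against 5.30 in WT, and Il12b at 1.07 (0.31 to 1.75) against 4.35. Fabp5 was at -1.61 against -3.84 and Zeb2 at -2.68 against -3.52. St8sia1 (-4.17 against -3.65) and Ccl9 (-3.59 against -3.57) were no nearer 0 than in WT, with 1 UMI each in the mutant cells. Dkk2 had no UMI in these cells. As the genes were picked at the extremes of the WT ratio, smaller ratios in the other library can follow from the picking alone. The difference between the libraries was not tested.

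Antibody tags were fewer in the 31 cells, with a median of 471 per cell in all against 563.5 in WT C12. The medians over the whole libraries were 469 and 533, although the Batf3-/- library held more tags in sum, at 8261360 against 6969819. CD8A tags had a median of 79 (quartiles 66 and 101.5), against 97 in WT C12 and 43 in WT C1, and 18 of 31 cells, 58.1% (39.1 to 75.5), lay above the 95th percentile of WT C1. CD24 had a median of 62 against 70 in WT C12. CD172A had a median of 35, against 26 in WT C12 and 36 in WT C1, and 83.9% of the mutant cells (66.3 to 94.5) lay above the WT C4 median against 61.9% of WT C12 cells. Taken as a share of a cell's tags, a setting added after seeing the data for these cells, CD8A had medians of 18.2% in the mutant and 17.6% in WT C12, and CD24 of 13.0% and 12.6%, so that neither was lower. CD172A had medians of 7.27% in the mutant, 4.54% in WT C12 and 7.21% in WT C1. Of 18 cDC2 identity transcripts that passed, 1 was higher in the mutant than in WT C12, 2 lower and 15 within 2-fold. That share within 2-fold was near the 88% over all genes compared. Per cell, the summed list had medians of 3890 CPM in the mutant and 2906 in WT C12. Sirpa, the gene of CD172A, had 14 UMIs in the mutant cells, and without the cell with most was at 42.2 CPM, against 41.8 in WT C12. With 1 library per genotype, the genotype cannot be told apart from the library in any of these differences.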

How the data were processed

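Raw tables of 1 WT and 1 Batf3-/- CITE-seq library were used. The authors demultiplexed reads with bcl2fastq 2.2.0, aligned them with Cell Ranger to GRCm38 (mm10), evened the depth of the libraries, filtered cells by genes detected and by mitochondrial and ribosomal content, and clustered them with Seurat 3.0.5. The deposited raw values are counts, as UMIs for each of 17751 genes and as tag counts for 11 antibody rows. The normalized gene tables, which the authors deposited as the natural log of scaled values, were not used here, and their centered log ratios of the tags served only as an alternative. Clusters, phases and cell labels were used as deposited; 9 deposited per-cell columns were not used.

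UMIs were summed per cluster and library and divided by the total (CPM). Genes needed 20 CPM in 1 of 2 groups and 20 UMIs over both, and a gene was counted as higher or lower from 2-fold. Named genes were the given markers, members of the lists, the 10 highest and 10 lowest ratios of each comparison from 50 CPM, and the 15 genes highest in C12 over the next cluster. The members and lists were chosen with earlier results of these data known. No test was made, since each genotype has 1 library and the clusters were built from the same transcripts. Intervals are exact Poisson, conditional binomial and Clopper-Pearson at 95%. A count of 0 was set to a floor of 3 only for the at-least folds. Elsewhere a compared gene with a count of 0 in 1 group was counted as past 2-fold. Cells were thinned to 2000 UMIs, with 1000 and 5000 as alternatives.

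A tag row was named where row and gene were each other's highest Spearman correlation outside C0, C1, C4 and C12, both with UMIs and with UMIs over the cell's total; 7 rows stayed unnamed and were not used. Doublets were called with Scrublet at an expected rate of 0.1. The calculations were tested on simulated data. Other weightings, totals, centring, floors, folds, doublet handling and depths were tried. Intervals were computed with scipy 1.17.1, doublets with scanpy 1.11.5 on anndata 0.12.19, sums with numpy 2.4.6 and pandas 2.3.3, and plots with matplotlib 3.10.9, under Python 3.11.15.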

Additional observations from a re-analysis of the deposited data

How the results depend on the processing

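The counts of genes past 2-fold depended on the floor and the fold, as their construction implies. With 5 UMIs and no CPM floor, genes past 2-fold numbered 6074 for C12 over C4 (2402 higher and 3672 lower), 3687 for C12 over C1 (1014 and 2673), 3427 for C1 over C0 (1836 and 1591) and 3195 for Batf3-/- over WT C12 (1041 and 2154). With a floor of 100 CPM they numbered 734 with 340 lower, 325 with 155 lower, 334 with 157 lower and 56 with 33 lower. At 3-fold they numbered 1153 (593 and 560), 407 (196 and 211), 462 (305 and 157) and 210 (92 and 118). Counted as UMIs per cell, a setting added after seeing the data, C12 over C4 had 3586 (411 and 3175), with cells of C4 the deeper, and Batf3-/- over WT C12 had 520 higher and 200 lower. Thinning to 2000 UMIs gave 966 for Batf3-/- over WT C12 (259 and 707); the cause was not tested. Of 74 counts of higher or lower genes over all alternatives 29 moved by more than 1.5 times. Of 1139 ratios of 123 named genes 240 left the main interval, and 0 of those past 2-fold changed sign. The floor and fold settings leave the ratio of a gene as it was, so the ratios under them could not move.

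Taken as a share of a cell's tags rather than as tag counts, 85.5% of C12 cells lay above the C4 median and 9.14% above the C1 median for CD4, 44.7% and 98.7% for CD8A, and 86.5% and 4.57% for CD172A, and 97.5% lay above the C1 median for CD24. Taken so for the Batf3-/- cells, 93.5% lay above the WT C4 median and 51.6% above the WT C1 median for CD4, where tag counts gave 64.5% and 29.0%. Above the WT C4 median lay 51.6% in place of 3.23% for CD8A, 12.9% for CD24, where tag counts gave none of 31 cells, and 100% in place of 83.9% for CD172A. Without called doublets 8.10% of C12 cells lay above the C1 median for CD172A. At an expected doublet rate of 0.05, 6.35% of WT C12 cells were called. The 31 Batf3-/- cells held 276572 UMIs in sum, so that 1 UMI is worth 3.62 CPM and genes at a few CPM cannot be ordered. No paired analysis was possible because each genotype is 1 library.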
